A study of Mus musculus with 2 samples.

Results

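The cells described here were meningeal fibroblasts in which no gene used to tell the layers of the meninges apart reached a set limit. They were taken from single-cell RNA sequencing of the dorsal meninges of male C57BL/6 mice (C57BL/6J in the study's methods), 1 week after a mild closed-skull traumatic brain injury (TBI) or a Sham procedure. The mice were 10 weeks old by the labels and the study's figure legends (10 to 12 in another field). The study's methods give a wider range for its young mice. Each group was 1 library made from the meninges of 5 pooled mice, so the mice cannot be separated and no difference between Sham and TBI could be tested against the spread between animals. The tissue came from the dorsal meninges, away from the site of direct impact, and live single cells were sorted before droplet capture with 10x Genomics chemistry. A cell belonged to the set when it had at least 1 UMI (unique molecular identifier, a count of captured transcripts) of at least 3 of the 6 fibroblast genes Col1a1, Col1a2, Dcn, Col12a1, Mfap4 and Slc47a1. It also had to have 0 UMIs of the leukocyte gene Ptprc, the endothelial gene Cdh5 and the mural gene Rgs5, 0 UMIs of the layer genes Foxc2, Alpl, Aldh1a2 and Col18a1, and fewer than 3 UMIs of Ptgds. Of 5816 cells that passed the quality limits, 179 met this rule, 22 of 2043 in the Sham library and 157 of 3773 in the TBI library. Of these TBI cells, 10 had 1 or 2 Ptgds UMIs, and the Sham cells had 0. A cell called without a layer marker below is one in which no layer gene reached its limit. The rule used measured UMIs, so the levels of these genes describe the choice of cells and were not tested.

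Fibroblasts make the collagen-rich scaffold of the meninges. Those of the dura, the tough outer sheet, secrete dense fibrillar collagen, those of the arachnoid form a barrier layer beneath it, and those of the pia cover the brain surface and the vessels that enter it. Foxc2 (a forkhead transcription factor) and Alpl (tissue-nonspecific alkaline phosphatase) were used here as dural markers, whereas Aldh1a2 (a retinoic acid synthesizing enzyme), Col18a1 (a basement membrane collagen) and Ptgds (prostaglandin D2 synthase) were used as arachnoid or pial markers. Marker genes such as transcription factors are often present in few copies, and a shallowly sequenced cell can lack their UMIs while expressing them.

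Both chains of type I collagen, the main fibrillar collagen of connective tissue, were among the most frequently detected rule genes. Col1a1 was seen in 19 of 22 Sham cells and 146 of 157 TBI cells, and its summed level was 3632 and 5024 counts per 1000000 of the group's summed UMIs (CPM). Col1a2 was seen in 20 and 148 cells, at 3992 and 5074 CPM. Single cells ranged from 0 to 517 Col1a1 UMIs per 10000 UMIs of the cell in Sham (median 23.4) and from 0 to 551 in TBI (median 29.7), so the cells of both libraries overlapped over nearly the whole range. Dcn, which encodes the small collagen-binding proteoglycan decorin, was seen in 14 and 107 cells, at 3188 and 5936 CPM. Col12a1, a collagen that sits along type I fibrils, stood at 2689 and 1928 CPM, and Mfap4, a microfibril-associated glycoprotein, at 1469 and 2356 CPM. Slc47a1, a transporter of organic cations, was the least often detected of the 6, in 10 Sham and 76 TBI cells. In GENCODE vM21 on the mm10 assembly (GRCm38), Col1a1 lies on chromosome 11 from 94936224 to 94953042 on the plus strand. Dcn, from 97479609 to 97518143, and Lum, the gene of the related proteoglycan lumican, from 97565128 to 97572703, lie near each other on the plus strand of chromosome 10.

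The background of these genes was read in cells that should lack them, as a description only, since the fibroblasts were chosen for having such UMIs. Cells with a Ptprc UMI and 0 UMIs of Cdh5 and Rgs5 were taken as leukocytes. Among them, 27 of 1017 in the Sham library had a Col1a1 UMI (2.65%, 6.61 CPM) and 145 of 1382 in the TBI library (10.5%, 81.0 CPM), at median depths of 3918 and 4045 UMIs. After each cell was thinned to 1000 UMIs, a Col1a1 UMI remained in 5 of 921 and 53 of 1285 leukocytes. The background was thus higher in the TBI library.

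Of the 157 TBI cells, 12 went against the fibroblast label, since a list of marker genes of another cell type gave more UMIs in them than the 6 rule genes did. No Sham cell did so. In 8 of the 12 the macrophage list was in excess (Lyz2, the C1q genes, Cd74 and others), in 5 of these together with a list of general leukocyte genes. A red cell, a mural, a choroid plexus and a Schwann cell list were each in excess in 1 other cell, and the last of these held 709 Schwann-list UMIs. The 12 cells had between 3 and 16 UMIs of the rule genes each, held 35467 of the 278464 UMIs of the TBI cells, and carried 1350 of their 1487 macrophage-list UMIs. Over all TBI cells the macrophage list stood at 5340 CPM, with all 12 of its genes seen and Cd74 the most abundant at 352 UMIs. Without the 12 cells it stood at 564 CPM, compared with 55.4 CPM in Sham (2 UMIs, both Cd74, with the other 11 genes at 0) and with 230 and 409 CPM in fibroblasts carrying a dural marker. Many of the values below are therefore also given without these cells, and "retained" means the 145 TBI cells without them and all 22 Sham cells. In the Sham cells the endothelial, pineal, adipocyte and T or natural killer cell lists were at 0 throughout, and the red cell list was higher than in TBI (1442 against 445 CPM). In TBI, these 4 lists held 17, 11, 2 and 3 UMIs.

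The cells at the edge of the rule were of mixed kind in TBI. Of the Sham cells, 3 had exactly 3 of the 6 genes, 11 had 4, 5 had 5 and 3 had all 6, whereas the TBI counts were 31, 53, 47 and 26. The 31 TBI cells with 3 genes held 10738 CPM of rule genes and 18742 CPM of the macrophage list, and the 26 with all 6 held 36666 and 346 CPM. Cells just outside, with 2 of the 6 genes, numbered 14 in Sham and 60 in TBI. In Sham these held 8686 CPM of rule genes and 2089 CPM of the macrophage list, and in TBI 1773 and 48931 CPM. At the Ptgds limit, 2 TBI cells had 2 UMIs and lay inside, whereas 1 Sham and 2 TBI cells had 3 UMIs and lay outside.

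The lack of a layer marker at its limit went with sequencing depth. The cells without a layer marker had a median of 1553.5 UMIs in Sham (503 to 4475) and 1463 in TBI (548 to 7449), whereas fibroblasts with a dural marker had medians of 2814 and 2386. In the TBI library, cells without a layer marker made up 30 of 59 fibroblasts under 1000 UMIs (50.8%, exact 95% interval 37.5 to 64.1) and 7 of 112 with at least 4000 UMIs (6.25%, 2.55 to 12.5). In the Sham library the same counts were 8 of 12 (66.7%, 34.9 to 90.1) and 1 of 15 (6.67%, 0.169 to 31.9). The intervals cover counting error only. When cells with a dural marker were thinned to 1000 UMIs, the marker was lost in 8 of 27 in Sham (29.6%) and 68 of 293 in TBI (23.2%). Thinning likewise left no marker at its limit in 11 of 25 arachnoid- or pial-marker fibroblasts in TBI. The set therefore held cells that cannot be told apart, by these genes at this depth, from fibroblasts of a named layer.

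**Figure D1:**
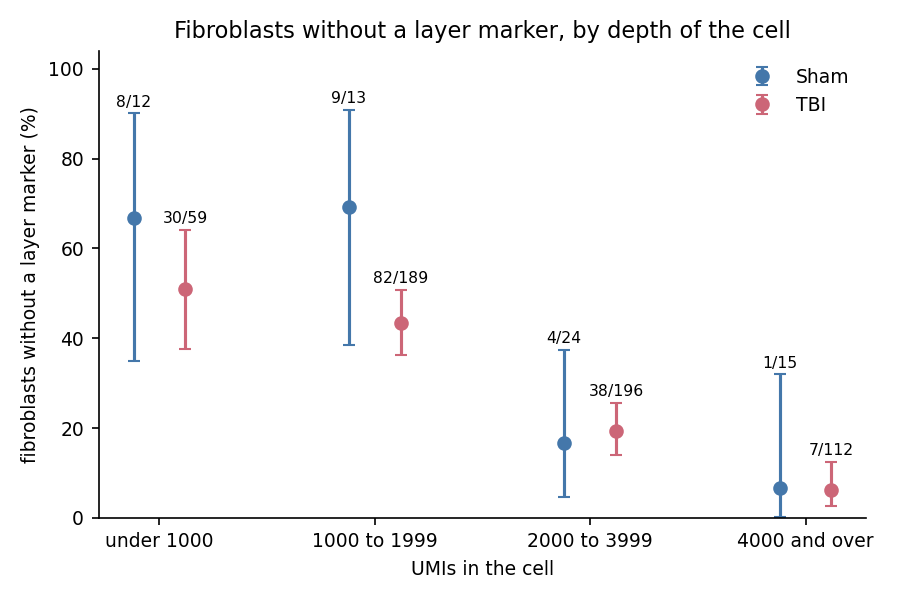
Percent of marker-defined fibroblasts in which no layer marker reached its limit (y axis) against UMI depth per cell in 4 bins (x axis). The Sham and TBI libraries are shown, with exact 95% binomial intervals as bars. In TBI the share was 50.8% under 1000 UMIs and 6.25% at 4000 or more.

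Layer genes that the rule did not use placed the cells in no layer. Of 11 such dural genes in the matrix, at least 3 were seen together in 17 of 22 Sham and 99 of 157 TBI cells, compared with 25 of 31 and 273 of 318 cells that carried a dural marker and were deeper. Of 10 arachnoid genes outside the rule, at least 3 together were seen in 0 of 22 Sham and 0 of 157 TBI cells, and in 0 of 31 and 5 of 318 dural-marker cells, so this list separated little at this depth. The dural list summed to 9730 CPM in the Sham and 10766 CPM in the TBI cells, compared with 13231 and 14398 CPM in dural-marker cells and 10599 and 10717 CPM in arachnoid- or pial-marker cells. Of the latter, 1 of 6 in Sham and 7 of 28 in TBI had more UMIs of another type's list than of the rule genes, and without such cells in any group the sums were 9730 and 12095 CPM, 13191 and 14542 CPM, and 15952 and 14916 CPM. The arachnoid list summed to 333 and 287 CPM, compared with 240 and 563 CPM in dural-marker cells and 824 and 515 CPM in arachnoid- or pial-marker cells. Mgp (matrix Gla protein, an inhibitor of calcification) was the most abundant dural gene of the list, at 6210 CPM in Sham and 7976 CPM in TBI, and was seen in 15 and 127 cells. In Sham, 46.4% of its 224 UMIs came from 1 cell, without which its level was 3733 CPM. Dural-marker fibroblasts held 9158 and 9215 CPM of Mgp, and arachnoid- or pial-marker fibroblasts 8315 and 7915 CPM (12501 and 11206 without other-type cells). Fxyd5, a regulator of the sodium pump, stood at 1469 and 1476 CPM, below the 2460 and 3372 CPM of dural-marker fibroblasts. It was, however, also seen in 606 of 1017 Sham and 995 of 1382 TBI leukocytes, so its presence does not mark a fibroblast. Foxp1, a forkhead transcription factor, was at 582 and 388 CPM, and Smoc2, a secreted calcium-binding matrix protein, at 554 and 323 CPM.

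Compared with dural-marker fibroblasts of the same library, few genes differed by 2-fold or more in the same direction in both libraries. Of 5271 genes with at least 50 UMIs over the 4 summed groups, 28 (0.531%) were higher and 56 (1.06%) lower in the cells without a layer marker. The dural-marker sums held more UMIs, so a gene high in those cells reached the limit at a lower CPM. The excess of lower genes did not hold with at least 20 UMIs a gene, where 150 were higher and 125 lower, or with 1 added to each sum in place of 0.5, where 30 were higher and 28 lower. Without other-type cells, 35 were higher and 62 lower of 5127. Alpl and Foxc2 headed the lower genes because the rule set them to 0. Several of the other lower genes rested on few UMIs. Postn (periostin, a matrix protein of dense connective tissue) had 0 UMIs in the Sham cells against 516 CPM in Sham dural-marker cells, and 3.59 against 34.6 CPM in TBI, but 55 of its 56 Sham dural UMIs came from 1 cell, without which the dural level was 10.9 CPM. Ccn3, a secreted matricellular protein, had 0 against 276 CPM in Sham and 64.6 against 253 CPM in TBI. Egr1, an immediate early transcription factor, had 0 against 240 CPM (14 of 26 UMIs in 1 cell) and 86.2 against 202 CPM. Timp1, an inhibitor of matrix metalloproteinases, and Acta2, the smooth muscle actin of contractile cells, passed 2-fold only in Sham and are not among the 56. Timp1 had 0 against 1152 CPM in Sham and 101 against 150 CPM in TBI, and Acta2 had 0 against 1143 CPM and 39.5 against 44.0 CPM. In the Sham dural-marker cells 112 of 125 Timp1 UMIs and 119 of 124 Acta2 UMIs came from 1 cell. Among the higher genes, Svep1, a large adhesive matrix protein, was at 249 against 36.9 CPM in Sham and 86.2 against 18.9 CPM in TBI.

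**Figure D2:**
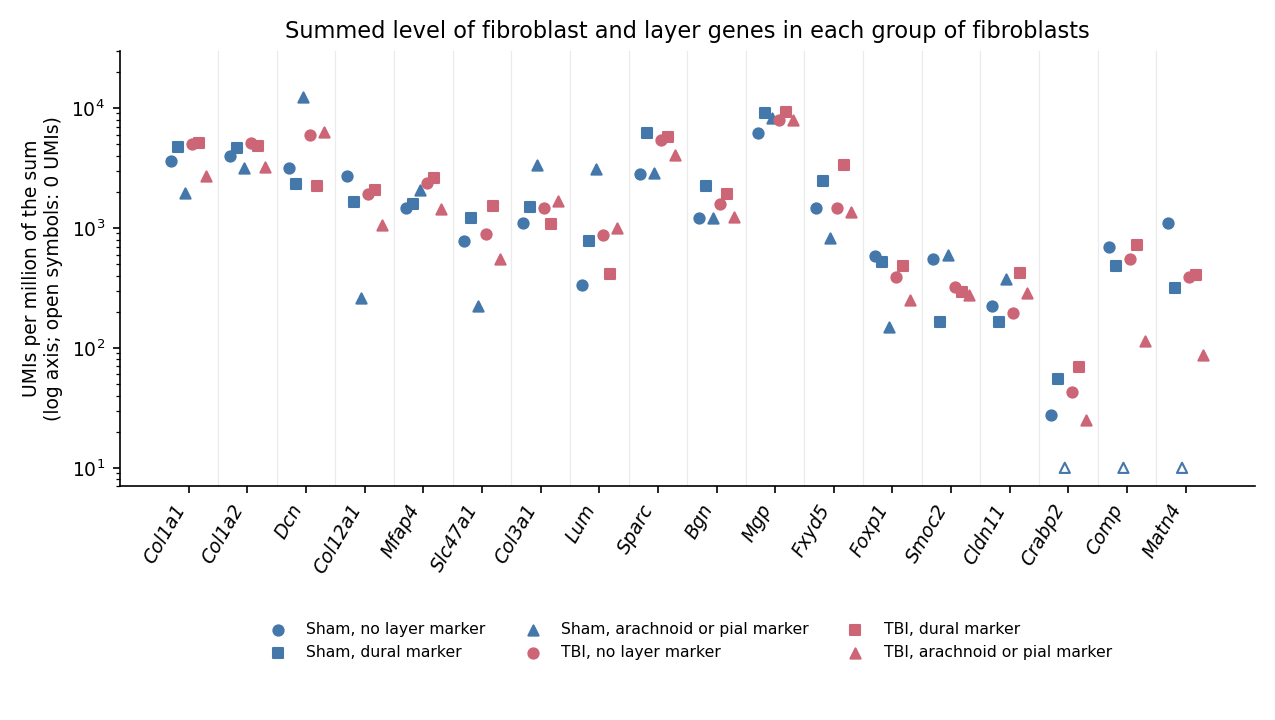
Summed level of rule genes, other matrix genes and layer genes (CPM, log axis) in fibroblasts without a layer marker, with a dural marker, and with an arachnoid or pial marker, in the Sham and TBI libraries, with groups at 0 UMIs as open symbols at the bottom. Mgp stood between 6210 and 9215 in the cells without a layer marker and those with a dural marker, and Comp and Matn4 were at 0 in the Sham arachnoid- or pial-marker cells.

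The TBI library alone, with its larger number of cells, allowed a closer comparison. With other-type cells left out of both kinds of fibroblast, 2229 genes reached 100 UMIs. Of these, 24 (1.08%) were at least 2-fold higher in cells without a layer marker and 66 (2.96%) lower. Here too the dural-marker sum was the larger, so a gene high in those cells reached the limit at a lower CPM. The levels given next are over all cells of each kind, and the ratios are those of the retained cells. Apod, a secreted lipid carrier, stood at 2262 CPM against 568 CPM in dural-marker cells (log2 ratio in retained cells 2.11, counting interval 1.94 to 2.29), and at 1469 against 525 CPM in Sham, and 32.7% of its TBI UMIs came from 1 cell. Gsn, the actin-severing protein gelsolin, stood at 2309 against 1079 CPM (1.27, 1.13 to 1.42), and at 1857 against 571 CPM in Sham. The 18 TBI cells rich in Dcn, described below, held 447 of the 630 Apod UMIs and 325 of the 643 Gsn UMIs. The other 139 TBI cells stood at 761 CPM of Apod and 1322 CPM of Gsn. In Sham, the 19 cells not rich in Dcn stood at 97.2 and 421 CPM. Dural-marker cells rich in Dcn were not set apart in this way. Scara5, a ferritin receptor, was at 187 against 52.4 CPM, and Col6a3, a chain of type VI collagen, at 241 against 109 CPM. Dcn, a rule gene given only as a description, was at 5936 against 2241 CPM. Spp1 (osteopontin) had the highest ratio, 463 against 39.8 CPM, but 65.9% of its UMIs came from 1 cell. The lower genes included Cited2, a transcriptional co-regulator (25.1 against 111 CPM), Gjb2, a gap junction protein (57.5 against 202 CPM), Myoc, the secreted glycoprotein myocilin (176 against 700 CPM), and Kcnj2, an inward rectifier potassium channel (32.3 against 141 CPM). In Sham the log2 ratios were 0.70 for Cited2 (-2.04 to 2.82), -0.13 for Gjb2 (-2.77 to 1.64) and -0.10 for Myoc (-2.28 to 1.45), whose TBI UMIs in the cells without a layer marker came to 53.1% from 1 cell. Kcnj2 had 0 UMIs against 111 CPM in Sham. These counts of higher and lower genes compare cells within 1 library and have no replicate.

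The same comparison was made with arachnoid- or pial-marker fibroblasts, of which there were 6 in Sham and 28 in TBI. Of 1400 genes with at least 50 UMIs, 52 (3.71%) were at least 2-fold higher and 38 (2.71%) lower in both libraries. The arachnoid- or pial-marker sums held fewer UMIs, so a gene high in them reached the limit only at a higher CPM. Without other-type cells, 5 and 21 of these fibroblasts remained, and 37 genes were higher and 22 lower of 1118. The levels below are over all cells. The higher genes included matrix genes of tendon and cartilage. Comp, cartilage oligomeric matrix protein, was at 693 CPM in the Sham cells without a layer marker against 0 UMIs, and at 549 against 113 CPM in TBI (630 against 169 without other-type cells). Matn4, a matrilin that links matrix fibrils, was at 1109 CPM against 0 UMIs and at 391 against 88.0 CPM. Clec11a, a secreted growth factor for bone-forming cells, was at 499 CPM against 0 UMIs and at 650 against 176 CPM. Mfap2, a component of microfibrils, and Sfrp2, a secreted Wnt modulator, were also at 0 UMIs in the Sham arachnoid- or pial-marker cells, and their TBI levels were 377 against 75.4 CPM and 215 against 75.4 CPM. Dural-marker fibroblasts carried these genes as well, so they are not particular to the cells without a layer marker. Their Sham and TBI levels were 479 and 719 CPM for Comp, 313 and 403 for Matn4, and 1032 and 1057 for Clec11a. Mfap2 stood at 378 and 511 CPM in them, and Sfrp2 at 212 and 168 CPM. The lower genes were led by Ttr (transthyretin), at 222 against 51685 CPM in Sham and 352 against 30493 CPM in TBI. Transthyretin is the hallmark of choroid plexus epithelium, and without the arachnoid- or pial-marker cells whose marker lists of another type outnumbered the rule genes its log2 ratio was -0.11 in Sham and 0.04 in TBI. Ptgds, used by the rule, followed the choice of cells. Vtn (vitronectin) was at 0 UMIs against 1648 CPM in Sham and at 259 against 1395 CPM in TBI (222 against 847 without other-type cells).

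Among the cells themselves, Dcn was spread unevenly. In TBI it was absent from 50 of 157 cells, had a median of 13.1 UMIs per 10000 and reached 575, and in Sham it was absent from 8 of 22, with a median of 5.93 and a maximum of 275. With a limit of 100 Dcn UMIs per 10000, chosen after the values were seen, 3 of 22 Sham cells (13.6%, exact 95% interval 2.91 to 34.9) and 18 of 157 TBI cells (11.5%, 6.94 to 17.5) were Dcn-high, with 1 and 8 cells between 80 and 120. Among dural-marker fibroblasts 1 of 31 (3.23%, 0.0816 to 16.7) and 11 of 318 (3.46%, 1.74 to 6.10) passed the same limit, and among arachnoid- or pial-marker fibroblasts 3 of 6 and 7 of 28 did. The Dcn-high cells held 65.2% of the Dcn UMIs of the Sham cells and 68.3% of those of the TBI cells. None of them was among the 12 other-type cells, but these had too few rule-gene UMIs, Dcn included, to reach the limit at their depth. The median depth of the Dcn-high cells was 1985 and 1562.5 UMIs, compared with 1518 and 1444 in the rest.

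**Figure D3:**
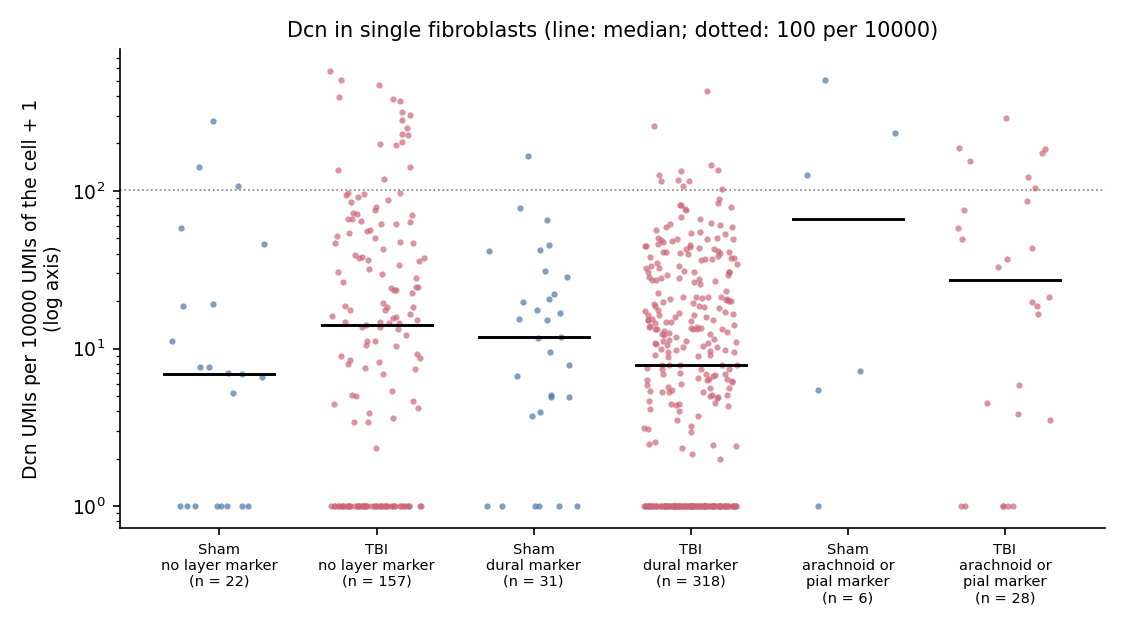
Dcn UMIs per 10000 UMIs of the cell plus 1 (y axis, log) in single fibroblasts of 3 kinds from each library (x axis), where each point is a cell, the bar the median and the dotted line the limit of 100. Of the cells without a layer marker, 3 of 22 in Sham and 18 of 157 in TBI lay above the limit.

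Several genes chosen after the values were seen stood at another level in the Dcn-high cells than in the rest of the set. In TBI, Apod was at 11808 CPM in the 18 Dcn-high cells (seen in 17) against 761 CPM in the other 139 (seen in 41), and in Sham it was at 9626 CPM in the 3 cells against 97.2 CPM in the other 19. Gsn was at 8585 against 1322 CPM in TBI, where it was seen in all 18 Dcn-high cells, and at 10397 against 421 CPM in Sham. Lum was at 2879 against 553 CPM in TBI and at 1925 against 64.8 CPM in Sham. Serping1, the inhibitor of the first complement protease complex, was at 4438 against 860 CPM in TBI, and Igfbp6, a binder of insulin-like growth factors, at 3011 against 619 CPM. Igfbp6 did not follow this order in Sham, where it was at 193 CPM (1 UMI) against 453 CPM. Pi16, a marker of adventitial fibroblasts, was at 740 against 62.3 CPM in TBI and had no UMI in Sham, and 53.5% of its TBI UMIs came from 1 cell. The other rule genes were not compared in this way, because a cell without Dcn had to carry 3 of them to enter the set. The long noncoding RNA Malat1 differed between these TBI cells as well, at 18359 against 58419 CPM, but less in Sham, at 91067 against 102400 CPM. The part of RNA quality in these differences was not tested.

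Genes of other states were thinly sampled. At least 3 genes of a contractile or myofibroblast list were seen in 8 of 22 Sham and 45 of 157 TBI cells, compared with 17 of 31 and 138 of 318 dural-marker cells. Acta2, which is in this list, had 0 UMIs in the Sham and 11 in the TBI cells. Having 3 genes of the list therefore need not mark a contractile cell. At least 3 tendon and cartilage genes were seen in 4 and 23 cells, and at least 3 genes of a universal adventitial fibroblast list in 1 and 14 cells. Osteogenic genes reached 3 together in 0 Sham and 2 TBI cells. Of 16 cell cycle genes only 6 had any UMI, in 1 Sham and 12 TBI cells. Dural-marker cells were deeper in both libraries, and these shares were not compared further.

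The cells took a larger share of the TBI library than of the Sham library. They were 22 of 2043 filtered cells in Sham (1.08%, 0.676 to 1.63) and 157 of 3773 in TBI (4.16%, 3.55 to 4.85), a difference of 3.08 percentage points (2.28 to 3.86) and a ratio of 3.86. Among cells without a Ptprc UMI the shares were 2.19% and 6.76%, a difference of 4.57 points (3.11 to 5.89). All marker-defined fibroblasts were 64 cells in Sham (3.13%) and 556 in TBI (14.7%), and those with a dural marker were 31 (1.52%) and 318 (8.43%). The share of fibroblasts without a layer marker was 34.4% in Sham (22.9 to 47.3) and 28.2% in TBI (24.5 to 32.2). The interval of the difference, -18.9 to 5.01 points, included 0. With 1 pooled library a group, differences between mice, tissue dissociation and the treatment cannot be told apart.

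The summed transcriptome of these cells rested on 36073 UMIs in Sham and 278464 in TBI. Of 958 genes with at least 50 UMIs in both sums together, 209 (21.8%) were at least 2-fold higher in TBI and 58 (6.05%) at least 2-fold lower. Because the TBI sum was the larger, a gene high in TBI reached this limit at a lower CPM than a gene high in Sham. The limit thus favoured higher genes in these counts. With a limit of 20 UMIs the counts were 541 and 403 of 3087 genes, a narrower excess of higher genes. Among the 807 such genes of the retained cells, 138 (17.1%) were higher and 31 (3.84%) lower. Each ratio compares 2 libraries, and its interval covers counting error only. Over 5988 genes with at least 10 UMIs the median log2 ratio of TBI to Sham was -0.14, with 2554 genes above 0 and 3434 below.

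Measures of RNA composition moved with the groups. Malat1, a nuclear RNA, made up 100768 CPM in Sham and 52973 CPM in TBI, with a median per cell of 9.02% and 4.04%, compared with 4.65% and 3.79% in dural-marker cells. Transcripts of ribosomal proteins made up 2.34% of UMIs in Sham and 5.44% in TBI, and 4.53% and 5.10% in dural-marker cells. The mitochondrially encoded share was similar, at 7.80% and 7.92%. Lars2, a mitochondrial leucyl-tRNA synthetase, was at 5988 CPM in Sham and 2309 CPM in TBI. Ribosomal protein genes had a median log2 ratio of 1.04 over 85 genes, with 81 above 0, and of 0.64 in the retained cells, compared with 0.13 in dural-marker cells. The part of these differences in the TBI to Sham ratios below was not tested.

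The genes described here from among those with the highest TBI to Sham ratios belonged to macrophages and other antigen-presenting cells and came chiefly from the 12 other-type cells. Lyz2, the lysozyme of myeloid cells, had 0 UMIs in Sham and 350 in TBI, at least 15.1-fold higher against the limit that 3 UMIs in the Sham sum set, and 18 UMIs in the retained TBI cells. C1qa, C1qb and C1qc, the chains of the complement recognition protein C1q, had 0 UMIs in Sham and 152, 121 and 126 in TBI. Tyrobp and Fcer1g, signalling adaptors of myeloid receptors, and the chemokine Pf4 also had 0 UMIs in Sham, and 109, 88 and 85 in TBI. H2-Aa and H2-Eb1, chains of class II antigen-presenting molecules, had 0 UMIs in Sham and 121 and 78 in TBI. Without the 12 cells, 33 UMIs of H2-Aa and 18 of H2-Eb1 remained.

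In the retained cells the highest ratios fell on other genes, each with 5 or fewer UMIs in Sham. Counts below are over all 157 TBI cells unless called retained. Tmsb10, an actin-sequestering thymosin, had 5 UMIs in 3 of 22 Sham cells and 213 UMIs over the 157 TBI cells, or 139 and 765 CPM (log2 ratio 2.33, counting interval 1.22 to 4.10, retained 2.40). Dural-marker TBI cells held 792 CPM of Tmsb10. Between the dural-marker cells of the 2 libraries its log2 ratio was -0.86 (-1.11 to -0.60), and 0.03 (-0.32 to 0.41) without the richest Sham cell. Klf2, a transcription factor also induced by tissue dissociation, had 0 UMIs in Sham and 58 UMIs in 41 TBI cells, at least 2.50-fold higher (retained 2.82), and was at 230 and 419 CPM in dural-marker cells. Cox7c, a subunit of cytochrome c oxidase, had 0 UMIs in Sham and 78 UMIs in 42 TBI cells, at least 3.37-fold higher (retained 2.67, from 54 UMIs in 34 cells). Vtn had 0 and 72 UMIs, 37.5% of them in 1 cell, at least 3.11-fold higher (retained 2.67, from 54 UMIs in 15 cells). Clu (clusterin, a secreted chaperone) had 2 UMIs in Sham and 103 in TBI, and Cebpd, a transcription factor of the acute phase response, 1 and 59. Chad (chondroadherin), with 3 and 155 UMIs, and Spp1, with 1 and 129, drew 69.0% and 65.9% of their TBI UMIs from 1 cell each.

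The genes with the lowest ratios were partly set by single Sham cells. AY036118, a transcript that overlaps ribosomal RNA sequence, was at 2079 CPM in Sham and 388 CPM in TBI (log2 ratio -2.43, -2.86 to -1.98), but 66.7% of its Sham UMIs came from 1 cell, without which the ratio was -1.05. G0s2, an inhibitor of fat breakdown, was at 1053 and 305 CPM (-1.80), with 63.2% of its Sham UMIs in 1 cell, without which the ratio was -0.55 (-1.34 to 0.42). Slit2, a secreted guidance ligand, was spread more evenly, at 693 CPM in 10 of 22 Sham cells and 230 CPM in 45 of 157 TBI cells (-1.61, -2.28 to -0.86, retained -1.44), and in dural-marker cells its ratio was 0.79. Pdgfra, the receptor for platelet-derived growth factor that marks many fibroblasts, was at 416 CPM in 8 Sham cells and 154 CPM in 32 TBI cells (-1.46, -2.31 to -0.47, retained -1.30), with a ratio of 0.36 in dural-marker cells. Matn4 was at 1109 and 391 CPM (-1.51), with 40.0% of its Sham UMIs in 1 cell, without which the ratio was -0.91. Resf1, a regulator of silenced retroelements, stood at 444 and 136 CPM (-1.73).

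**Figure D4:**
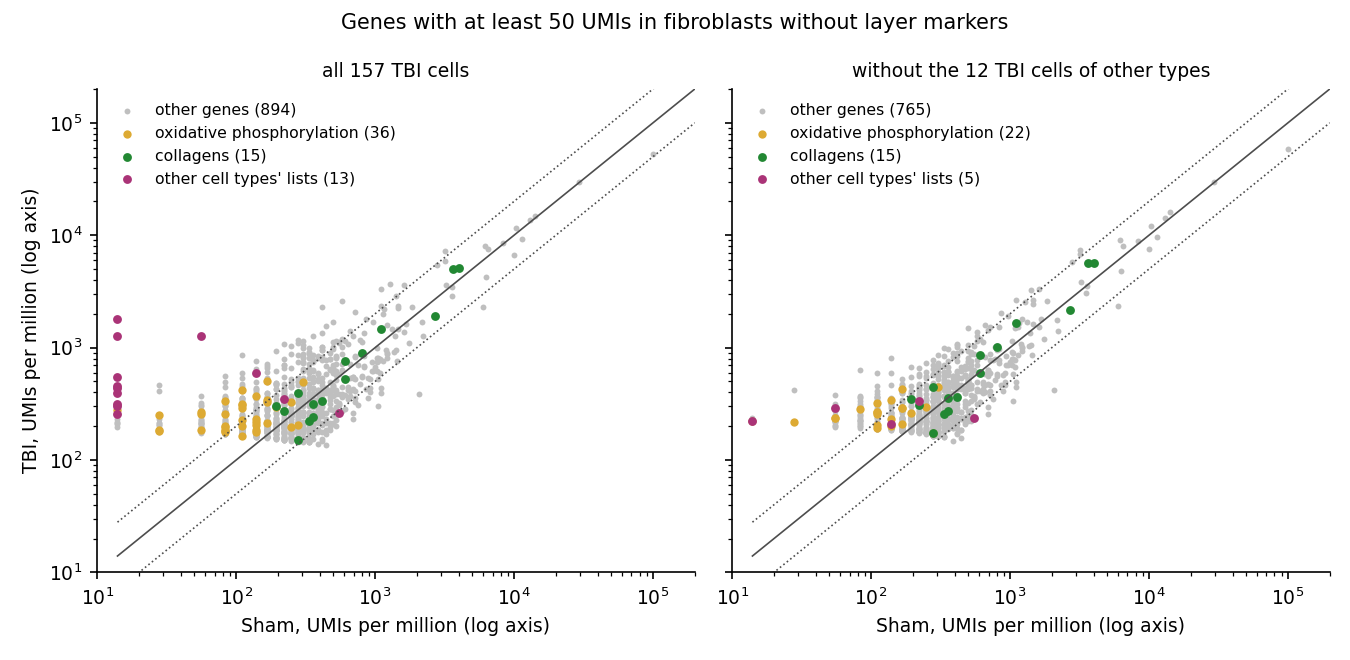
Summed level of each gene with at least 50 UMIs in TBI (y axis, CPM, log) against Sham (x axis, CPM, log), for all cells and for the cells without the 12 TBI cells of other types, where lines mark equal levels and 2-fold differences and genes with 0 Sham UMIs are drawn at the left edge. Of the genes plotted, 209 of 958 and 138 of 807 lay at least 2-fold above the line of equal levels.

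Genes with many UMIs gave narrower intervals. Cst3 (cystatin C, a secreted protease inhibitor) was at 3188 CPM in Sham and 7186 in TBI (log2 ratio 1.17, 0.90 to 1.46), with 49.6% of its Sham UMIs in 1 cell, without which the ratio was 1.98. Sparc, a collagen-binding matricellular protein, was at 2800 and 5405 CPM (0.94, 0.66 to 1.25), compared with 6238 CPM (4360 without 1 cell) and 5727 CPM in dural-marker cells. Fth1, the heavy chain of ferritin, was at 1275 and 3685 CPM (1.52), and its retained ratio was 1.00. Apoe, a lipid carrier also made by macrophages, was at 1109 and 3347 CPM (1.58), and its retained ratio was 0.45, with 24 of its 40 Sham UMIs in 1 cell, without which the ratio over all TBI cells was 2.71. Itm2b, a transmembrane protein, was at 1608 and 3595 CPM (1.15). Igfbp5, a binder of insulin-like growth factors, was at 9952 and 6654 CPM (-0.58), but 51.3% of its Sham UMIs came from 1 cell, and without that cell the ratio was 0.26 (0.04 to 0.50), in the opposite direction. Slc38a2, an amino acid transporter, was at 6321 and 4230 CPM (-0.58).

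Of 18 collagen genes with at least 10 UMIs, 10 had a higher and 8 a lower level in TBI, with a median log2 ratio of 0.18 (retained 0.35), and 0 of the 15 with at least 50 UMIs passed 2-fold, beside 21.8% higher and 6.05% lower over all 958 genes. The list includes the rule genes Col1a1, Col1a2 and Col12a1, whose levels are only a description. Without them, 8 of 15 genes were higher and 7 lower, with a median of 0.14 (retained 0.30), 0 of 12 passed 2-fold, and the summed level was 5738 CPM in Sham and 6101 CPM in TBI. Col3a1, the second major fibrillar collagen, was at 1109 and 1458 CPM (0.38, -0.08 to 0.90). Genes that process collagen had a median of -0.21 over 22 genes (retained -0.05), and 2 of 12 were at least 2-fold lower, P4ha1, a prolyl hydroxylase subunit (305 and 151 CPM), and Bmp1, the protease that trims procollagen (305 and 144 CPM), with intervals that included 0. In the retained cells the ratio was -1.01 for P4ha1 and -0.94 for Bmp1, the latter under 2-fold. Serpinh1, the collagen chaperone, was at 582 and 1023 CPM (0.78, 0.17 to 1.53). Small proteoglycans without the rule gene Dcn had a median of -0.03 over 15 genes (retained 0.03), and of these Lum was at 333 and 869 CPM (1.33, 0.55 to 2.36), with 58.3% of its 12 Sham UMIs in 1 cell, without which the ratio was 2.41. Ogn (osteoglycin) was at 1746 and 1099 CPM (-0.68, -1.06 to -0.25).

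Glycoproteins and elastic fibre genes without the rule gene Mfap4 had a median of 0.25 over 26 genes (retained 0.38), and of 0.00 when genes with 0 Sham UMIs were set to their lower bound. Of 17 with at least 50 UMIs, 3 were at least 2-fold higher and 2 lower, beside 21.8% and 6.05% of all genes. The higher were Igfbp7, a secreted binder of growth factors (859 and 1781 CPM), Fbln1, a matrix glycoprotein (582 and 1203 CPM), and Fn1, fibronectin (83.2 and 302 CPM, from 3 Sham UMIs). The lower were the thrombospondins Thbs1 (915 and 406 CPM, log2 ratio -1.19) and Thbs2 (721 and 359 CPM, -1.03). Without the Sham cell richest in each, the ratios were -0.46 (-1.15 to 0.38) and -0.47 (-1.20 to 0.43). In dural-marker cells the ratio was 0.33 for Thbs1 and -0.18 for Thbs2. Matrix proteases and their inhibitors had a median of 0.68 over 16 genes, 11 above 0 and 5 below, of 0.46 at the bound and 0.80 in the retained cells. The inhibitors Serpinf1 (1109 and 2334 CPM, 1.06, 0.61 to 1.57) and Timp3 (166 and 388 CPM) and the proteases Htra1 (194 and 478 CPM) and Ctsk (55.4 and 277 CPM, from 2 Sham UMIs) were at least 2-fold higher, 4 of the 8 with at least 50 UMIs beside 21.8% of all genes, and the list's median in dural-marker cells was -0.39. Contractile genes had a median of -0.16 over 9 genes with 0 of 3 past 2-fold, among them Cald1, an actin-binding protein (1220 and 880 CPM). The 7 universal adventitial genes had a median of 0.40 (retained 0.75 over 6), with Gsn the only one at 50 UMIs, and the 6 tendon and cartilage genes a median of 0.08, with Chad and Cilp2 past 2-fold. The 6 osteogenic genes had a median of 2.09 that went to 0.00 at the bound, and only Spp1 reached 50 UMIs.

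Transcription factors of fibroblasts had a median of -0.54 over 21 genes, 5 above 0 and 16 below, and of -0.38 in the retained cells, whereas the median in dural-marker cells was 0.21. Of 9 with at least 50 UMIs only Foxd1, a forkhead factor, was past 2-fold, at 610 and 287 CPM (-1.11, -1.78 to -0.33), beside 6.05% of all genes lower and 21.8% higher. Without the Sham cell richest in Foxd1 its ratio was -0.90 (-1.62 to -0.04), under 2-fold. Ebf1 was at 970 and 618 CPM (-0.67, -1.18 to -0.08). Growth factor genes had a median of -0.40 over 25 genes, 10 above and 15 below 0, and of -0.20 in the retained cells, beside -0.14 over all genes. Of these Igf2, insulin-like growth factor 2, was at 748 and 309 CPM (-1.30, -1.92 to -0.60) and Ccn1, a matricellular protein induced by YAP, at 471 and 198 CPM (-1.28), and beside Pdgfra these were the lower genes past 2-fold. Without the Sham cell richest in each, the ratio was -0.97 for Igf2 (-1.67 to -0.14), under 2-fold, and -1.22 for Pdgfra (-2.15 to -0.07). Igfbp6 (416 and 944 CPM, a ratio of 1.14, and of 2.23 without its richest Sham cell) and Pmepa1, an inhibitor of TGF-beta signalling (83.2 and 269 CPM, from 3 Sham UMIs), were the higher ones. Over all cells, 3 of 15 were thus lower and 2 higher, beside 6.05% and 21.8% of all genes. The dural genes outside the rule had a median of -0.26 over 10 genes and the pial and perivascular genes 0.20 over 5, of which the calcium-binding S100a6 was at 139 and 643 CPM (2.08), seen in 4 Sham and 54 TBI cells. In dural-marker cells its ratio was -1.93, but 125 of its 139 Sham UMIs there came from 1 cell, without which the ratio was 1.10.

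Chemokine, cytokine and complement genes had a median of 0.56 over 16 genes, which was 0.04 when genes at 0 in Sham were set to their bound, and 0 of 5 passed 2-fold, too few genes to read against the 21.8% and 6.05% of all genes. In dural-marker cells the median of this list was -0.62 over 17 genes, and 1 Sham cell held 120 of its 393 Sham UMIs there. Cxcl12, the chemokine that retains leukocytes in tissues, was at 222 and 334 CPM (0.51, -0.45 to 1.84), and Serping1 at 832 and 1347 CPM (0.67, 0.16 to 1.28), with a ratio of 1.39 without its richest Sham cell. Interferon-induced genes had a median of 0.04 over 26 (retained -0.11 over 21), with Ifitm2, an antiviral membrane protein, at 305 and 646 CPM (1.02, 0.21 to 2.11, and 1.92 without its richest Sham cell) and Bst2 at 55.4 and 176 CPM (1.36, retained 0.60) past 2-fold. The median of the interferon-induced list in dural-marker cells was -0.80 over 32 genes, and 1 Sham cell held 127 of its 524 Sham UMIs there. Immediate early genes, which respond to stress and to tissue dissociation, had a median of 0.98 over 16 genes and of 0.42 at the bound, and 1 of 3, Klf2, passed 2-fold. At least 3 of them were seen together in 3 of 22 Sham cells and 61 of 157 TBI cells. Among dural-marker cells, which were deeper, the same was seen in 17 of 31 and 193 of 318 cells. The median of the immediate early list there was 0.25 over 23 genes. The nuclear genes of oxidative phosphorylation had a median of 0.64 over 79 genes, 64 above 0 and 15 below, of 0.51 at the bound and 0.44 in the retained cells, and 17 of the 36 with at least 50 UMIs were at least 2-fold higher, beside 21.8% of all genes. Among them, Uqcr11, a subunit of complex III, was at 55.4 and 266 CPM and Ndufa13, a subunit of complex I, at 139 and 370 CPM (1.29, 0.15 to 3.07). The same list had a median of 0.21 in dural-marker cells, and the 13 mitochondrially encoded genes a median of 0.05 (0 past 2-fold). The ribosomal protein share was higher in the same library, and its part in the result was not tested.

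**Figure D5:**
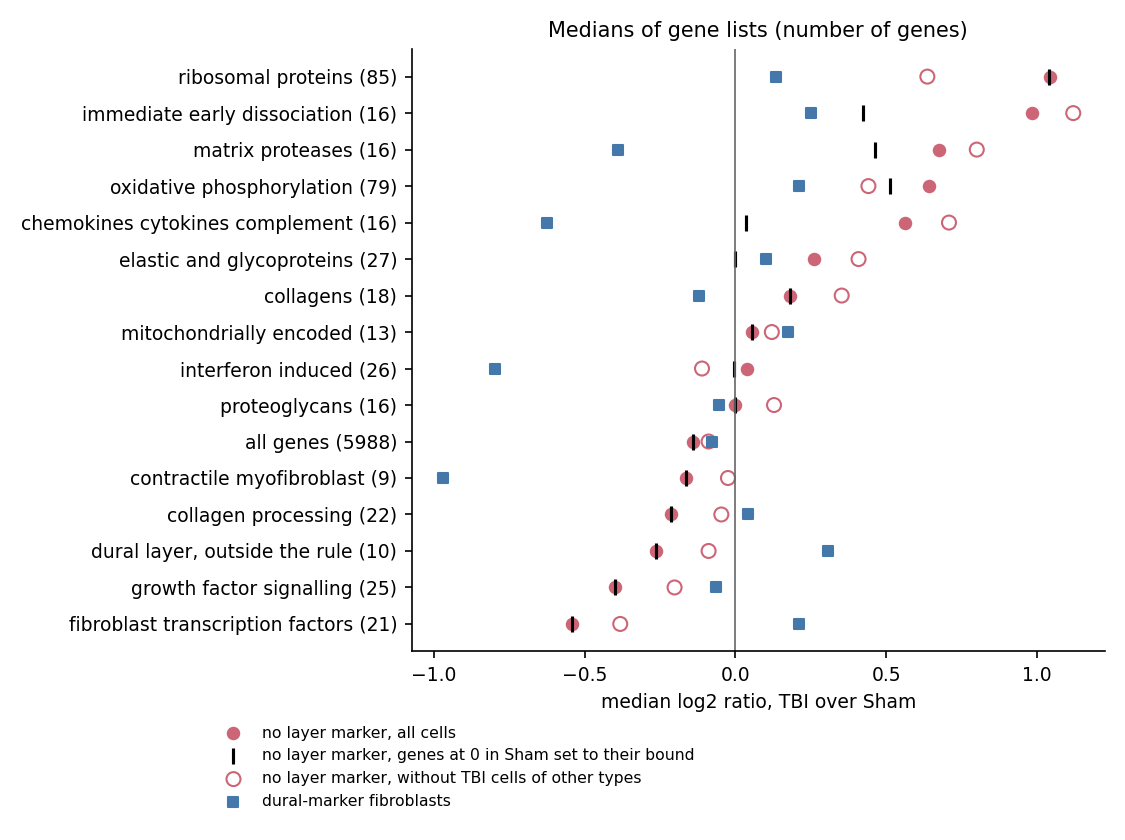
Median log2 ratio of TBI to Sham (x axis) of gene lists with at least 9 measured genes (y axis, number of genes in parentheses), for cells without a layer marker, the same with genes at 0 in Sham set to their lower bound, the same without TBI cells of other types, and dural-marker fibroblasts. Ribosomal protein genes stood at 1.04 and collagens, with their 3 rule genes, at 0.18, beside -0.14 for all genes.

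Genes that the study named for fibroblasts after injury were also read in these cells, and since they were chosen on these libraries their values are no independent evidence. Cd302, a lectin-like receptor, was at 111 and 345 CPM (log2 ratio 1.47, 0.23 to 3.54, from 4 Sham UMIs), and Pfn1, the actin-binding profilin, at 166 and 499 CPM (1.48, 0.43 to 3.06, retained 0.88). Mgp had a ratio of 0.36 (0.16 to 0.57), and of 1.09 (0.83 to 1.37) without the Sham cell that held 46.4% of its UMIs. Ddr2, a collagen receptor, was at 527 and 384 CPM (-0.49, -1.17 to 0.33), Nisch at 305 and 417 CPM (0.39, -0.44 to 1.49) and Ppib, a collagen-folding isomerase, at 388 and 528 CPM (0.40, -0.35 to 1.35), each with an interval that included 0. Fxyd5 had a ratio of -0.01, Ptprs of 0.06 and Tpm3 of 0.69, and the intervals of these 3 also included 0.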

How the data were processed

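Raw UMI counts per gene and barcode were deposited by the authors as 1 matrix per library (32285 genes, mm10). The submitters' processing notes name Cell Ranger 2.1.1, Seurat 3.9.9 and DESeq2 1.30.0, the study's methods Cell Ranger 1.3.1, and the matrix header 3.1.0. The Sham matrix held 2699 barcodes and 9527334 UMIs, the TBI matrix 4349 and 15011079. Cells with 150 to 5000 genes, at most 20% mitochondrial and at most 5% hemoglobin UMIs were kept, 2043 and 3773, with medians of 2764 and 2663 UMIs. The libraries shared 20 barcodes, 0 of them among the cells described. Dural-marker fibroblasts met the same fibroblast rule with Foxc2 or Alpl and no arachnoid or pial marker at its limit.

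UMIs were summed over cells. Log2 ratios of CPM had 0.5 added to each sum, with exact binomial 95% intervals, exact Clopper-Pearson intervals for shares and Newcombe intervals for their differences. With 1 library a group no test was run. Genes with at least 50 UMIs entered counts of 2-fold differences, and list genes at least 10. These limits applied to the compared sums together, so genes high in the group with more UMIs reached them at a lower CPM. Genes were named from the 10 highest and 10 lowest past 2-fold, with and without other-type cells, 8 each way against the other fibroblasts, 12 each way within TBI, list members and genes named by the study, with only part of these described, and 1 gene that this rule named is not reported here. Members and lists were chosen with earlier results of these data known, and the TBI-only and Dcn comparisons after the values were seen. Scrublet (scanpy 1.11.5) marked 2 and 3 cells as doublets, 0.0979% and 0.0795%, too few for the threshold to have worked, so its scores were used only in an alternative and no doublet was removed. Positions are from GENCODE vM21. Python 3.11.15, NumPy 2.4.6, SciPy 1.17.1, pandas 2.3.3, statsmodels 0.14.6 and matplotlib 3.10.9 were used, and the ratio was tested on simulated data.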

Additional observations from a re-analysis of the deposited data

Results flagged for a closer look

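Barcodes removed only for hemoglobin held further cells of this kind. In TBI, 5 of 174 such barcodes (2.87%, exact 95% interval 0.939 to 6.58) met the rest of the rule, compared with 0 of 289 in Sham (exact 95% interval up to 1.27%), where a count of 0 allows a share of up to 1.04% by the limit of 3 counts.

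Against dural-marker fibroblasts, 7 genes lay more than 2-fold in opposite directions in the libraries, and none of these differences was tested. Their log2 ratios were -1.06 in TBI and 1.80 in Sham for Exoc4, -1.72 and 1.80 for Hist1h2bc, -1.11 and 1.59 for Pappa and -1.65 and 3.17 for Xpo4. They were 1.08 and -1.17 for Lum, 1.48 and -3.21 for Vim and 3.53 and -7.58 for Spp1. In Sham dural-marker cells 872 of 895 UMIs of the osteogenic list, which holds Spp1, came from 1 cell, as did 73 of the 84 Lum UMIs. Against arachnoid- or pial-marker fibroblasts, also untested, the ratios in TBI and Sham were 1.65 and -3.10 for Bri3 and 1.94 and -3.80 for Trf. Cemip had a ratio of -1.21 in TBI, and in Sham it had 15 UMIs against 0. Without other-type cells 3 of the 7 dural contrasts fell below 2-fold in TBI, at -0.93 for Exoc4, -0.91 for Pappa and 0.99 for Vim, and the TBI ratios of Bri3 and Trf were 3.48 and -0.04. The Sham ratios of Bri3, Trf, Spp1 and Xpo4 rest on 1 UMI in the group where the gene was lower.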

How the results depend on the processing

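Of 76 alternative settings over 7 results, 59 left the value within its interval or, for counts of genes, within 1.5 times. The other 17 moved it further, and 0 reversed a value whose interval left out 0. The interval covered counting error for shares, and for list medians it came from the ranked ratios of the genes. Counts of genes could not be called reversed, nor could the share of fibroblasts without a layer marker, whose interval included 0. The excess share in TBI was 3.99 points with at least 2 of 6 rule genes, 1.47 among cells of at least 2000 UMIs and 5.95 after thinning to 1000 UMIs. The 267 genes past 2-fold between TBI and Sham became 132 with at least 100 UMIs a gene, 944 with at least 20 (541 higher and 403 lower, against 209 and 58), 131 after thinning and 169 without other-type cells. Against dural-marker cells 84 became 35, 275 and 23 under the first 3 of these, and with 0.5 replaced by 1 the split of 28 higher and 56 lower became 30 and 28, and with at least 20 UMIs 150 and 125. Against arachnoid- or pial-marker cells 90 became 37, 316, 36 and 59. The oxidative phosphorylation median of 0.64 became 0.95 with at least 50 UMIs, 0.37 as a mean over cells and 1.34 after thinning. The collagen median of 0.18 ran from -0.05 to 0.39. Leaving out the Sham cell richest in a gene, an alternative added after the data were seen, was tried on 66 ratios of TBI to Sham of single genes. It moved 20 beyond their counting interval and reversed 8. In the cells without a layer marker it turned Igfbp5 from -0.58 to 0.26. In dural-marker cells it turned Lum to 1.72, Sparc to 0.39, Fth1 to 0.45, Tmsb10 to 0.0273, Postn to 1.11, Timp1 to 0.0340 and S100a6 to 1.10. The causes were not tested. The 22 Sham cells and their 36073 UMIs limit every ratio. No paired analysis was possible because each group was 1 library.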
